A study of Mus musculus with 1536 samples.

Results

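The serotonin neurons of the dorsal raphe (DR) release peptides beside their amine. The messenger RNA of 8 neuropeptide genes was followed in single adult mouse serotonin neurons: Pdyn, Penk, Gal, Npb, Cartpt, Tac1, Cck and Adcyap1. These 8 genes were taken as a named list out of 53263 genes in the table, of which 25522 had a read in at least 3 cells. The list held 7 of those 25522, since Cck was read in 2 cells. The table held 999 cells, each on its own in 1 well, sorted for tdTomato from Sert-Cre;Ai14 mice of the C57BL/6J background aged 40 to 45 days. In these mice Cre is driven by the serotonin transporter gene, so a cell is labelled if the transporter gene was active at any time in its history. One group, labelled Principal DR, held 290 cells on 5 plates. The other, labelled All DR, held 709 cells on 11 plates, and per the study's methods this dissection took principal and caudal DR together with the median raphe. No plate held cells of both groups, so dissection and plate set cannot be told apart. Per the methods each dissection drew on several brains, but the labels do not tie cells to animals, so each dissection was handled as 1 sample, and no test between dissections was made. Values are given per plate in place of it.

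A cell's total was 827283 reads at the median, with a range of 96834 to 2780443, and values are read counts scaled to the cell's total as CPM. A gene was called read in a cell at 1 read or more. The summed CPM of 4 serotonin markers, Tph2 and Slc6a4 among them, had a median of 16683, and the 2 lowest cells, both of All DR, were at 41.4 and 730 CPM, with the next lowest at 1140 CPM. The 5 Principal DR plates were not alike. The summed CPM of 9 immediate early genes had plate medians of 121 and 286 on plates 12 and 13, and of 18.6, 21.3 and 19.4 on plates 25, 39 and 40, against 141 to 251 on the All DR plates.

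Neuropeptides are cut from larger precursor proteins inside dense-core vesicles and act on receptors coupled to G proteins, often at a distance from the site of release. Dynorphin, from Pdyn, acts mainly on the kappa opioid receptor, and the enkephalins, from Penk, on the delta and mu opioid receptors. Galanin, from Gal, is long known from rodent dorsal raphe neurons. PACAP, from Adcyap1, raises cyclic AMP in its target cells, and several peptide genes are themselves switched on by cyclic AMP through the element TGACGTCA, called CRE.

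The starts of these genes are shown because 3 of them, Pdyn, Gal and Adcyap1, carry most of the reads, and because Cartpt was the one member with a whole CRE. RefSeq windows of the GRCm38.p6 assembly, from 250 bases before to 50 bases after a start, were available for 6 of the 8 members, with 8 windows in all, and none was printed for Penk and Npb. The Pdyn window lay at chr2:129699889-129700188, minus strand, the Gal window at chr19:3414495-3414794, minus strand, the Cartpt window at chr13:99900634-99900933, minus strand, and the Adcyap1 window at chr17:93198918-93199217, plus strand. Each is written 5′ to 3′ on the strand of its gene, in lower case, and capitals mark TGACGTCA, TGACG on either strand, or TATAAA.
Pdyn: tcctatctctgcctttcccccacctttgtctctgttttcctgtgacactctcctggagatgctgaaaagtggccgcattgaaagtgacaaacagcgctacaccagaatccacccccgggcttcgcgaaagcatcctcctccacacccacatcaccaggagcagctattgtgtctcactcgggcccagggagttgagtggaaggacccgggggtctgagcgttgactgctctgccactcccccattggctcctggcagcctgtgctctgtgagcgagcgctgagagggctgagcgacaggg
Gal: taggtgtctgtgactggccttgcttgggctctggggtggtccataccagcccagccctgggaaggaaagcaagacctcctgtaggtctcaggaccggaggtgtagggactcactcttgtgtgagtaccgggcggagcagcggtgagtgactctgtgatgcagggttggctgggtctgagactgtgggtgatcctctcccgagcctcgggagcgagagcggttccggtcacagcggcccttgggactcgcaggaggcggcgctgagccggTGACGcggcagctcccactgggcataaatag
Cartpt: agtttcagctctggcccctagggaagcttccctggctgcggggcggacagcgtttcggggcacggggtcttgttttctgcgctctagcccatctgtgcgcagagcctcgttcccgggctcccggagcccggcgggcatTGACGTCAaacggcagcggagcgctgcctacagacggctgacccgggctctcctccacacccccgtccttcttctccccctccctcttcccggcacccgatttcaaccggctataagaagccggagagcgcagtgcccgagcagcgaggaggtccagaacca
Adcyap1: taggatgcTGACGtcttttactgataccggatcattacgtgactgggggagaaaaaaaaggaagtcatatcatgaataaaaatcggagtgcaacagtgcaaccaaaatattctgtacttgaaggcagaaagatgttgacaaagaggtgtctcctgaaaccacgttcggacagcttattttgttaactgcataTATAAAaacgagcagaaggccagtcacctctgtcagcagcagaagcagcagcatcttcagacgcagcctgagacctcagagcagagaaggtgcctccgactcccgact
TGACGTCA, which holds TGACG on both strands, was in 1.79% of all 32851 windows and in the Cartpt window, where it began 112 bases before the start. TGACG on either strand was in 20.8% of all windows and in 6 of the 8 windows of members, those of Gal, Cartpt, Tac1, Cck and both of Adcyap1. The 2 Adcyap1 windows overlap and share the same TGACG, so 1 site is counted in both. TATAAA was in 13.6% of windows and, among the members, in the Adcyap1 window shown. Neither of the 2 Pdyn windows held any of these letters, nor AGGTCA, which was in 16.3% of windows. A match is a description of letters, not a binding site. In the GENCODE annotation of the same assembly, Npb lies at chr11:120608477-120609093 on the plus strand and Penk at chr4:4133531-4138819 on the minus strand.

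The members fell into a read-often and a read-seldom set. Adcyap1 was read in 369 of 999 cells (36.9%, exact 95% binomial interval 33.9 to 40.0%), Gal in 361 (36.1%, 33.2 to 39.2%), Pdyn in 333 (33.3%, 30.4 to 36.4%) and Npb in 199 (19.9%, 17.5 to 22.5%). The intervals of Adcyap1, Gal and Pdyn overlap, and the one of Npb lies below all 3. Penk was read in 41 cells (4.10%, 2.96 to 5.53%), Cartpt in 17 (1.70%, 0.994 to 2.71%), Tac1 in 9 (0.901%, 0.413 to 1.70%) and Cck in 2 (0.20%, 0.0243 to 0.721%). All intervals here cover counting error alone, and reads carry no molecular identifiers. Together, 801 cells (80.2%, 77.6 to 82.6%) had a read of at least 1 member, and 427 (42.7%, 39.7 to 45.9%) had reads of at least 2.

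**Figure D1:**
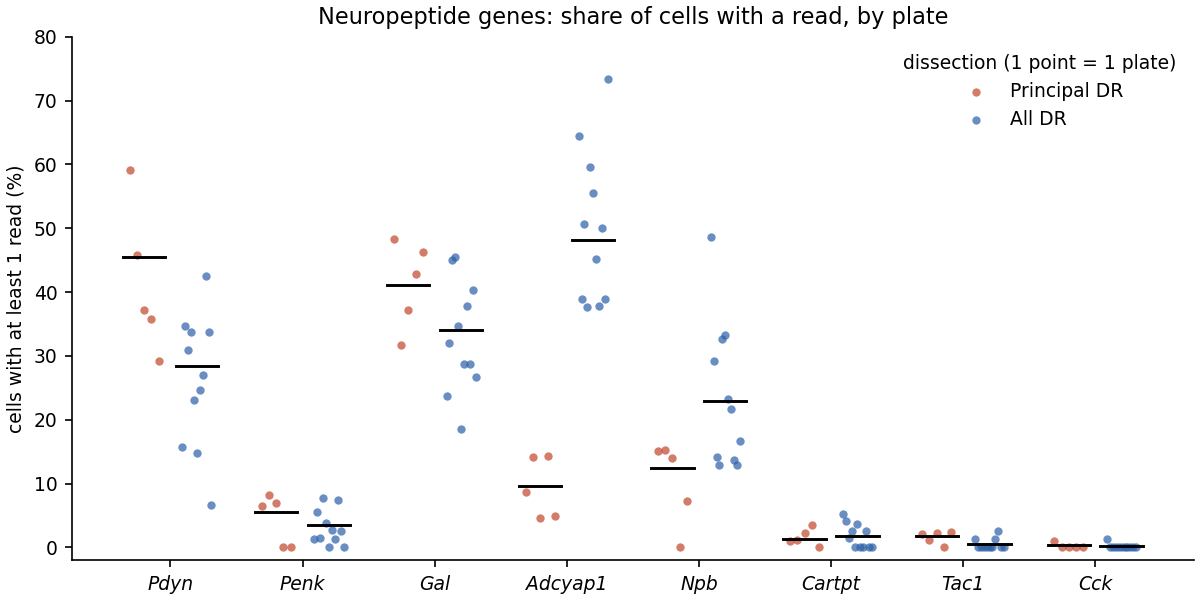
Share of cells with at least 1 read of each neuropeptide gene (y axis, percent); 1 point is 1 plate, coloured by dissection. The Adcyap1 points of the 5 Principal DR plates, 4.65 to 14.3%, lie below those of the 11 All DR plates, 37.7 to 73.3%, while the points of Gal and Pdyn overlap.

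Pdyn had the highest median CPM in positive cells, before transcript length was taken into account. In the 333 cells with a read its level had a median of 67.7 CPM, with quartiles of 27.1 and 149 CPM and a maximum of 1529 CPM, and 125 cells reached 100 CPM. Adcyap1 followed with a median of 43.9 CPM (quartiles 21.9 and 97.8, maximum 484) and 88 cells at 100 CPM or more. Gal had a median of 22.2 CPM (quartiles 10.1 and 61.5, maximum 348), with 44 cells at 100 CPM or more. These 3 levels thus spread over more than a decade from cell to cell. Npb, the precursor of neuropeptide B, a ligand of Npbwr1, had a median of 6.32 CPM and a maximum of 44.2 CPM, and 45.7% of its cells had fewer than 5 reads of it. A share for Npb therefore moves with depth: after each of 990 cells was thinned to 250000 reads it was 15.6%, against 20.1% unthinned in these cells. The same thinning moved Pdyn from 33.4 to 32.7% and Adcyap1 from 36.8 to 36.1%.

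The order changed when levels were set per length of transcript. Gal, the shortest of the 3 leading messengers, had the highest mean over all cells at 20.4 CPM per kb, before Pdyn at 16.4, Adcyap1 at 6.79, Npb at 3.35 and Penk at 0.644 CPM per kb. In cells with a read, the medians were 28.1 CPM per kb for Gal, 23.4 for Pdyn, 11.7 for Npb and 11.6 for Adcyap1. Among 66 listed neuropeptide and granin genes ranked by mean CPM, Pdyn was number 5, behind the granins Scg2, Chgb, Chga and Scg3, which fill dense-core vesicles. Adcyap1 was number 9, Gal number 10 and Npb number 16. A few cells carried most of each message: the 100 cells with the highest level of each held 77.0% of all Pdyn CPM, 69.5% of Gal, 63.3% of Adcyap1 and 82.2% of Npb.

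The 4 seldom-read members differed among themselves. Penk, at a median of 15.5 CPM and 17 reads in its 41 cells, was not an occasional single read, as 35 of these cells had 5 reads or more. Penk overlaps a gene on the opposite strand, A830012C17Rik, and reads were counted without strand, so its values are uncertain, while the other 7 members overlap no annotated gene. Cartpt, the precursor of the feeding peptide CART, reached 9 reads at most. Tac1, the precursor of substance P, was at 547 CPM in 1 All DR cell of plate 48, which held 72.0% of all Tac1 CPM. That cell had 120692 reads, a serotonin marker sum of 41.4 CPM and no read of Slc6a4, and it also had 66.3 CPM of Penk. Without it and the cell at 730 CPM of serotonin markers, the mean of Tac1 went from 0.761 to 0.214 CPM and Tac1 was read in 8 of 997 cells. The difference between dissections in Tac1, 0.18 in log2(CPM + 1), turned to -0.60 without plate 48. Cck, the precursor of cholecystokinin, was read in 1 cell of each dissection, with 8 and 11 reads.

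**Figure D2:**
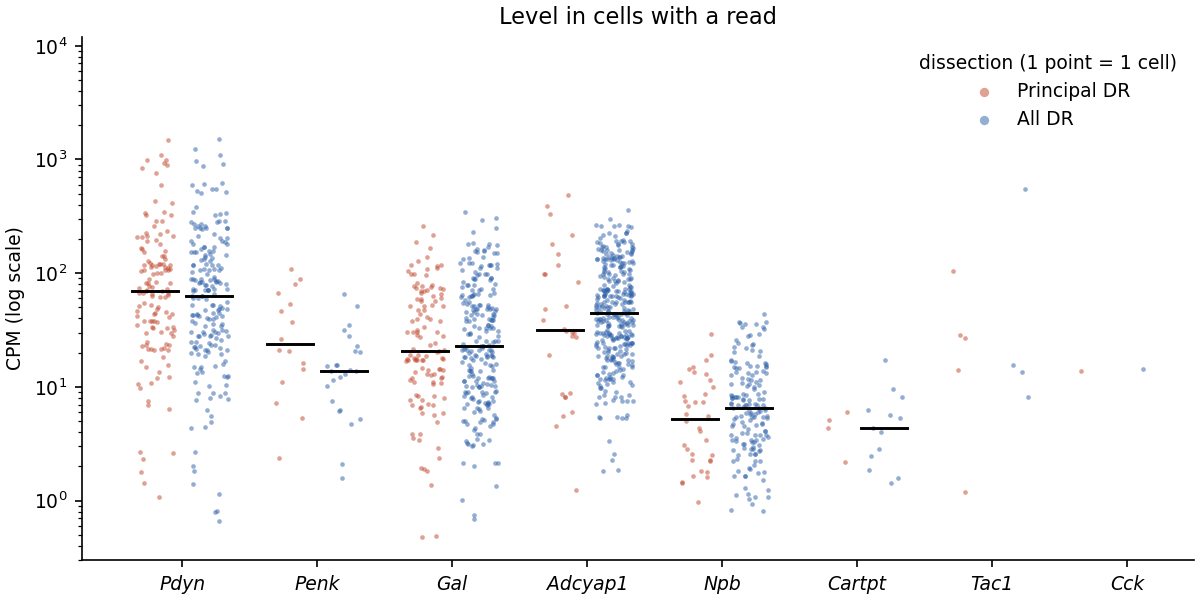
Level of each neuropeptide gene in the cells with a read (y axis, CPM, log scale); 1 point is 1 cell, coloured by dissection, and black bars are medians of groups of at least 10 cells. Pdyn, Adcyap1 and Gal reach above 100 CPM in 125, 88 and 44 cells, Npb in none, and the highest Tac1 point is the cell at 547 CPM.

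Adcyap1 was the member that differed most between dissections. It was read in 28 of 290 Principal DR cells (9.66%, 6.51 to 13.7%) and in 341 of 709 All DR cells (48.1%, 44.4 to 51.8%). Its mean was 7.47, 10.2, 5.06, 18.5 and 6.01 CPM on Principal DR plates 12, 13, 25, 39 and 40. On the 11 All DR plates it was 25.3 CPM at the lowest, 32.6 at the median and 45.9 at the highest, so the plates of the 2 dissections did not overlap. The means over cells, 8.76 and 32.5 CPM, differed by 1.78 in log2(CPM + 1), and by 1.69 to 1.94 with any 1 plate left out. The difference was in the number of cells more than in the level of a positive cell: the median in cells with a read was 31.8 CPM in Principal DR and 44.8 CPM in All DR, with overlapping quartile ranges. At 250000 reads per cell the shares were 9.00 and 47.2%. The median sum of immediate early genes also differed, with 206 CPM in Adcyap1 cells and 144 CPM in the others, and its part in the result was not tested. On Principal DR plates 12 and 13 Adcyap1 was read in 11.2% of cells at a mean of 8.75 CPM, and on plates 25, 39 and 40 in 7.14% at 8.77 CPM.

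Of the 7 members read in at least 3 cells, Adcyap1 was the 1 that was at least 2-fold higher in All DR on this scale, against 0.901% of all 25522 genes, and the 1 whose All DR plate means all lay above the Principal DR plates, against 2.54% of all genes. None of the 7 was at least 2-fold higher in Principal DR, against 1.54% of all genes, or lay above without overlap there, against 2.43%.

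Pdyn was higher in Principal DR in its share of cells, and its difference in mean level rested on 1 plate. It was read in 132 Principal DR cells (45.5%, 39.7 to 51.4%) and in 201 All DR cells (28.3%, 25.1 to 31.8%). The share was 59.1, 45.9, 37.2, 35.7 and 29.3% on plates 12, 13, 25, 39 and 40, each above the All DR median of 27.0% and within or above the All DR range of 6.67 to 42.5%. The mean on these 5 plates was 136, 33.8, 32.6, 34.6 and 49.0 CPM, and on the All DR plates 5.47 CPM at the lowest, 36.0 at the median and 67.8 at the highest. By mean level, plate 12 alone stood above the All DR plates. The difference of the means over cells, -0.82 in log2(CPM + 1), was 0.06 without plate 12. The level within positive cells was alike, with medians of 70.1 CPM in Principal DR and 63.7 CPM in All DR.

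Gal differed least between dissections among the 4 often-read members. Its mean was 22.2, 11.0, 20.5, 20.3 and 11.4 CPM on plates 12, 13, 25, 39 and 40, and 8.78 CPM at the lowest, 15.9 at the median and 24.3 at the highest on the All DR plates, which enclose them. Its shares were 41.0% (35.3 to 46.9%) and 34.1% (30.6 to 37.8%). The difference of its means over cells, -0.10 in log2(CPM + 1), took either sign when 1 plate was left out, from -0.29 without plate 13 to 0.11 without plate 12. Npb was read in 12.4% of Principal DR cells (8.85 to 16.8%) and 23.0% of All DR cells (19.9 to 26.3%), with 0 of the cells of plate 39 and 48.7% of those of plate 48, and its plates overlapped. At 250000 reads per cell its shares were 9.34 and 18.1%. Penk was read in 13 cells of plates 12 and 13 (7.30%, 3.95 to 12.2%), in 3 cells of plates 25, 39 and 40 (2.68%, 0.556 to 7.63%) and in 25 All DR cells (3.53%, 2.29 to 5.16%), intervals that overlap.

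Peptides were combined unevenly in the same cells. Of the 999 cells, 198 had no member, 374 had 1, 335 had 2, 81 had 3 and 11 had 4. The most frequent states after none were Adcyap1 alone in 129 cells, Pdyn with Gal in 109, Pdyn alone in 99, Gal alone in 84, Gal with Adcyap1 in 73 and Npb with Adcyap1 in 71. The dissections differed in these states: Pdyn with Gal was in 53 Principal DR and 56 All DR cells, while Npb with Adcyap1 was in 0 and 71 cells. To set each pair against the plates' own shares, the number expected was summed over plates from the product of both shares. No p-value was formed, because the cells of a plate are not replicates.

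Dynorphin and galanin messages met more often than this expectation. Pdyn and Gal were read together in 166 cells, which were 49.8% of Pdyn cells and 46.0% of Gal cells, against 126 expected. They met more often than expected on 15 of 16 plates. The ratio was 1.22 in Principal DR and 1.39 in All DR. Gal was at a median of 31.9 CPM in its cells with Pdyn and 18.1 CPM in those without, whereas Pdyn was at 68.3 CPM with Gal and 67.7 CPM without. The opioid pair met as well: 29 cells had Pdyn and Penk, 70.7% of Penk cells and 8.71% of Pdyn cells, against 16.2 expected, above on 9 plates and below on 3. Cells with a read of Gal had a median total of 928556 reads and cells without 781396, and the part of depth in the pairs was not tested.

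Dynorphin message met those of PACAP and neuropeptide B less often than expected. Pdyn and Adcyap1 met in 66 cells, 19.8% of Pdyn cells and 17.9% of Adcyap1 cells, against 105 expected, below on 15 of 16 plates, with ratios of 0.693 in Principal DR and 0.619 in All DR. Pdyn and Npb met in 37 cells, 11.1% of Pdyn cells and 18.6% of Npb cells, against 59.1 expected, below on 14 plates. Gal and Npb met in 45 cells, 12.5% of Gal cells and 22.6% of Npb cells, against 66.1, below on 12 plates. Npb and Adcyap1 met in 101 cells, which were 50.8% of Npb cells and 27.4% of Adcyap1 cells, against 86.3 expected. This pair was above expectation on 9 plates and below on 5. That excess was in All DR, with 99 cells against 82.8, while Principal DR had 2 against 3.47. Gal and Adcyap1 met in 124 cells with 124 expected. At 10 CPM as the threshold, the ratio of Pdyn and Gal was 1.4 and that of Pdyn and Adcyap1 0.577, and at least 2 members were at this level in 26.2% of cells.

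The genes whose levels went most with each peptide were ranked among 8087 genes with a mean above 10 CPM, by Pearson's r of the natural log of CPM + 1 after the mean of each plate was taken off. These points are cells of the same plates that share depth and sorting, so the values describe likeness only. The leading genes for Pdyn were Ret (r = 0.47), a receptor tyrosine kinase for glial cell line-derived factors, Kcnab1 (0.45), a potassium channel subunit, the homeobox gene Pbx3 (0.45), Rgs10 (0.44) and Cntnap3 (0.40), each positive on 14 of 14 plates with enough Pdyn cells. Ret was read in 62.2% of Pdyn cells and 19.5% of the others, with means of 47.2 and 6.50 CPM. At the other end were Spock3 (-0.34) and Cpne4 (-0.33).

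Gal went most with Crhr2 (0.47), a receptor for the urocortins, then Rgs2 (0.41), Oasl2 (0.40), Gsta4 (0.39) and the serotonin receptor Htr5b (0.38), each on 14 of 14 plates. Crhr2 was read in 66.2% of Gal cells and 26.2% of the others. Its r was 0.26 in Principal DR and 0.55 in All DR, and 0.38 with each cell's total reads and number of detected genes both taken out. Ncam2 (-0.34) and Nnat (-0.31) stood at the other end.

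Adcyap1 went with the nuclear receptor genes Rorb (0.48) and Nr2f2 (0.46), the vesicle gene Rab3b (0.37), the nitric oxide synthase gene Nos1 (0.34) and the nicotinic receptor gene Chrna4 (0.32). The sign was the same on 12 of 12 plates for these genes except Nos1, with 10 of 12. Rorb was read in 87.0% of Adcyap1 cells and 32.2% of the others. The lowest were the homeobox gene En1 (-0.44), which was -0.08 in Principal DR and -0.48 in All DR, and the cadherin gene Cdh13 (-0.43).

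Npb went with C1ql3 (0.44), Pter (0.43), the chemokine gene Cxcl12 (0.37), Stxbp6 (0.37) and the muscarinic receptor gene Chrm2 (0.37). This likeness was one of All DR, where the 5 values were 0.50, 0.49, 0.41, 0.42 and 0.46. In Principal DR, with 36 Npb cells, they were 0.10, 0.10, -0.03, 0.08 and -0.06, and whether the dissections differ was not tested. Pitpnc1 (-0.44) and Gfra1 (-0.42) were lowest. Penk and Cartpt had no value above 0.16, which is no finding in counts this sparse. Tac1 and Cck were read in fewer than 10 cells and were not ranked.

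The Adcyap1 share differed with the transmitter genes of a cell. Slc17a8, the vesicular glutamate transporter VGLUT3, was read in 649 cells, and Adcyap1 in 45.8% of these against 20.6% of the 350 others. These shares pool the dissections. With and without Slc17a8 they were 16.8 and 3.77% in Principal DR, and 53.1 and 34.6% in All DR. On the scale of log2(mean CPM + 1), Adcyap1 was higher in Slc17a8 cells on 5 of 5 Principal DR plates, with a median difference of 3.37, and on 9 of 11 All DR plates, with a median of 0.67. Gad1 or Gad2, the enzymes that make GABA, were read in 347 cells. Adcyap1 was lower in them on 5 of 5 Principal DR plates (median -4.12) and on 7 of 11 All DR plates (-0.47). The Principal DR medians for both classes rest on 28 cells with Adcyap1. In the 138 cells with Trh, the thyrotropin-releasing hormone gene, Adcyap1 was read in 3.62% against 42.3% of the others. Of the Trh cells, 98 were of Principal DR, where these shares were 1.02 and 14.1%. In All DR they were 10 and 50.4%. Adcyap1 was lower with Trh on 10 of 10 plates with enough Trh cells (median -3.00).

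By their levels on the plates, Pdyn and Gal went with these genes differently in the 2 dissections. Pdyn was read in 53.6% of Principal DR cells with Gad1 or Gad2 and 31.8% of those without, higher on 5 of 5 plates (median 2.55). In All DR the shares were 26.2 and 29.0%, higher on 5 of 11 plates (-0.45). For Slc17a8, the Pdyn level was higher in cells with it on 1 of 5 Principal DR plates (-0.42) and on 9 of 11 All DR plates (1.69). The Gal level was lower in Slc17a8 cells on 5 of 5 Principal DR plates (-0.74) and higher on 9 of 11 All DR plates (1.5). The Principal DR shares with and without Slc17a8 were close, 45.0 and 45.9% for Pdyn and 40.5 and 41.5% for Gal. In All DR they were 31.9 and 18.8% for Pdyn, and 38.8 and 21.5% for Gal. Gal was read in 58.2% of Principal DR cells with Trh against 32.3% of those without, and its level was higher on 5 of 5 plates (1.63). In All DR, Gal was likewise read more often with Trh, in 50% of 40 cells against 33.2% of the others. Its level there was higher with Trh on 1 of 5 plates (-1.24), while the means over All DR cells were 17.1 CPM with and 15.6 CPM without. The differences between dissections in these relations were not tested. For Npb the medians over plates were 0.41 for Slc17a8 and 0.34 for the GABA genes, with plates on both sides of 0.

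**Figure D3:**
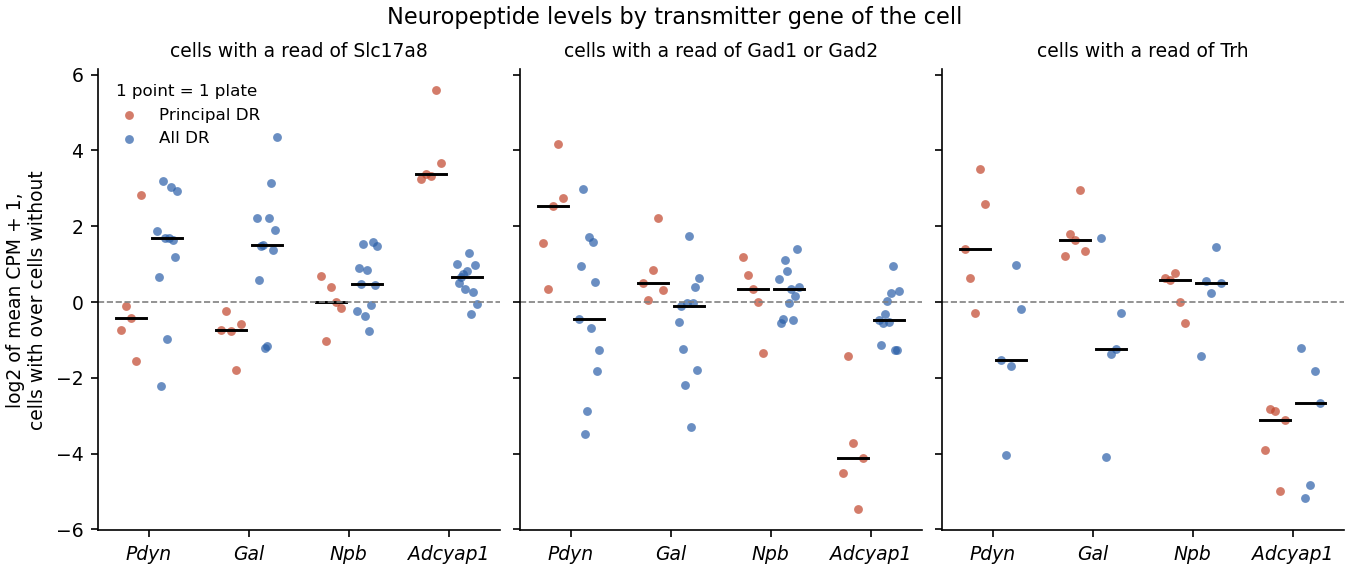
Difference in mean level between cells with and without a transmitter gene (y axis, log2 of mean CPM + 1); 1 point is 1 plate with at least 5 cells of each kind, coloured by dissection, and black bars are medians over plates. Adcyap1 lies above 0 for Slc17a8 on 14 of 16 plates, and below 0 for Trh on 10 of 10.

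Clusters of the cells, built with the 8 genes held out, differed in their leading peptides, and several held more than 1 of them. Cluster 1 of 12, led by Npy2r, Tmeff2 and Rgs10 and made of 160 All DR cells and 1 Principal DR cell, had Pdyn in 80.7% of cells (73.8 to 86.5%) at a mean of 138 CPM and held 47.1% of all Pdyn CPM. It also had Gal in 50.9% of cells (42.9 to 58.9%), at 28.0 CPM, and held 28.1% of all Gal CPM. Cluster 4, led by Prph, Asb4 and Cwc22, was made of 106 Principal DR cells of plates 12 and 13. It had Pdyn in 67.0% of cells (57.2 to 75.8%), at 116 CPM, Gal in 45.3%, at 20.2 CPM, and Penk in 12 cells (11.3%, 5.99 to 18.9%). Gal had its highest share in cluster 6. This cluster, led by Rorb, Cpne9 and Nefm, had Gal in 88.6% of its 88 cells (80.1 to 94.4%) at 55.5 CPM, Adcyap1 in 68.2% and Pdyn in 15.9%.

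Npb had its highest share in cluster 3. Led by Piezo2, Pter and C1ql3, it held 110 All DR cells and 0 Principal DR cells. The cluster had Npb in 76.4% (67.3 to 83.9%), Adcyap1 in 80.0% (71.3 to 87.0%) at a mean of 29.9 CPM, Gal in 7.27% and Pdyn in 1 cell. It held 53.7% of all Npb CPM and 6 of the 17 Cartpt cells. Npb was also read in 11 of the 23 cells of cluster 12, led by Tecrl, P2ry1 and S1pr3 (47.8%, 26.8 to 69.4%, 4.34 CPM), and in 25.6% of the 39 cells of cluster 11. Adcyap1 had 2 further clusters with high shares, cluster 2, led by Tagln2, Sostdc1 and Pth2r (75.9% of 145 cells, 64.1 CPM), and cluster 10, led by Grik1, Spp1 and Nmbr (65.9% of 41 cells, 65.6 CPM). Cluster 11, led by Sox14, Asb4 and Adamtsl2, had Adcyap1 in 0 of 39 cells, which allows a share of up to 7.69% taken as 3 cells of the total, with Gal in 46.2%. Cluster 5, led by Npas1, Nell1 and Sema5a, was the poorest large cluster, with Gal in 23.7% and Pdyn and Adcyap1 in 8.60% each of 93 cells.

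The clusters followed the dissection and its plates: 4 of them held 287 of the 290 Principal DR cells with 12 All DR cells, and the other 8 held 700 cells, 3 of them from Principal DR. A clustering of values centred on each plate, chosen after the data were seen, gave 11 clusters, several of them mixed. In one led by Rorb, with 44 Principal DR and 86 All DR cells, Gal was read in 68.2% (52.4 to 81.4%) and 84.9% (75.5 to 91.7%), and Adcyap1 in 22.7% (11.5 to 37.8%) and 66.3% (55.3 to 76.1%). Within this cluster the Adcyap1 share was lower in Principal DR. For clusters led by Npas1 and Rgs5 the share was 7.50 and 11.5% in Principal DR, and 10.4 and 28.9% in All DR. It was not lower in Principal DR for those led by Maf, with 34.8 against 31.7%, and Asb4, with 2.86 against 0%. Leading genes were picked by mean level: Rgs5 also led cluster 7 of the 12, where it was read in 1 of 67 cells. Whether a cluster holds the same kind of cell in both dissections was not tested. The centred counterpart of cluster 3, led by Piezo2, again held 110 All DR cells and 0 Principal DR cells. One led by Smoc2, with 43 Principal DR cells, had Pdyn in 93.0% of them (80.9 to 98.5%).

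**Figure D4:**
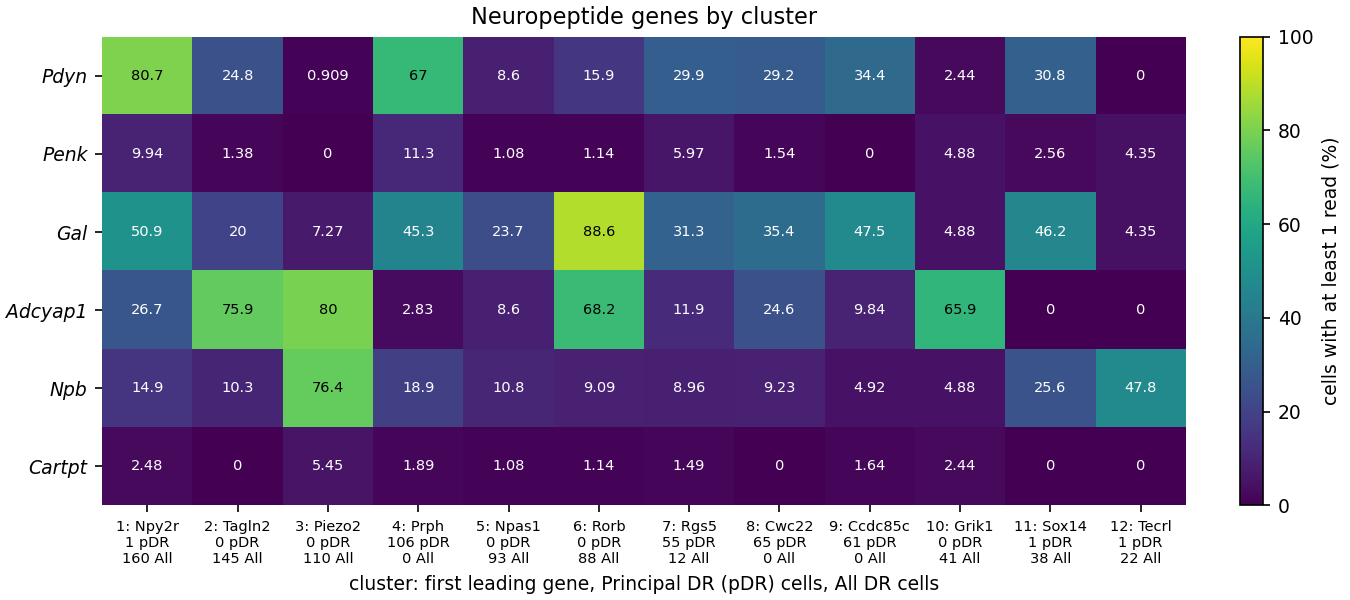
Share of cells with a read of 6 neuropeptide genes (rows of the map) in 12 clusters built without the 8 genes (x axis, each with its first leading gene and its cells per dissection); colour and number give the percent. Pdyn is highest in cluster 1 (80.7%), Gal in cluster 6 (88.6%), and Npb and Adcyap1 in cluster 3 (76.4 and 80.0%).

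The receptors of these peptides were unequal in the same neurons. Of a list of 15 receptor genes, 13 were read in at least 3 cells, and 3 of these, Oprk1, Oprm1 and Tacr3, were at least 2-fold higher in All DR, against 0.901% of all genes, all with overlapping plates. Adcyap1r1, the PACAP receptor, was read in 885 cells (88.6%), in 84.3% of Adcyap1 cells and 91.1% of the others. Oprk1, the kappa opioid receptor on which dynorphin acts, was read in 169 cells, in 9.61% of Pdyn cells and 20.6% of the others, with 32 cells having both against 55.0 expected. Galanin receptors were seldom read: Galr1 was read in 3 cells, Galr2 in 6 and Galr3 in 0 of 999, which allows a share of up to 0.30% by the same rule of 3 cells. Npbwr1, the receptor of neuropeptide B, was read in 4 cells, and Tacr1, the substance P receptor, in 97. Cckar, the cholecystokinin receptor gene read in 93 cells, went with Pdyn at r = 0.41.

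Of 58 other neuropeptide genes, 12 had no read and 40 were read in at least 3 cells. Trh was at least 2-fold higher in Principal DR, with means of 120 and 12.6 CPM, against 1.54% of all genes. Adm and Pnoc were at least 2-fold higher in All DR, against 0.901% of all genes, and the plate means of all 3 overlapped. The closest of the other peptides to the members was Ghrh, the growth hormone-releasing hormone gene, with r = 0.34 for Pdyn and 0.29 for Gal. The machinery that matures peptides was nearly everywhere: 8 genes were each read in 94.7% of cells or more, the convertases Pcsk1 at a mean of 202 CPM and Pcsk2 at 78.1 CPM among them. Pam, which amidates the ends of many peptides, PACAP and galanin included, was higher in Principal DR, with plate medians of 186 to 1041 CPM against 99.5 to 181 CPM, and a difference of -1.80 in log2(CPM + 1). Of the 8 genes, Pam and Ctsl had plate means in Principal DR that all lay above the All DR plates, against 2.43% of all genes. For Cpe they all lay below, against 2.54% of all genes.

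Markers of other cells were set beside the peptides. The summed CPM of astrocyte, microglia, endothelial and other-neuron markers had medians of 0 in both dissections, which cannot show a difference in few cells. Th, from the other-neuron list, was read in 8.41% of Pdyn cells and 3.75% of the others. Its shares were 7.76 and 3.92% for Gal, 5.53 and 5.25% for Npb, and 3.52 and 6.35% for Adcyap1. Of the same list, Slc17a6, Slc32a1, Slc6a5, Chat and Slc17a7 were read in 2, 5, 6, 8 and 0 cells, too few to compare. The summed CPM of 6 oligodendrocyte markers had medians of 102 in Principal DR and 109 in All DR, with a highest cell of 78990 CPM. By mean level, 4 of the 6 genes were at least 2-fold higher in All DR, against 0.901% of all genes, with overlapping plates. The median sum of glial and endothelial markers was 114 CPM in Adcyap1 cells and 107 CPM in the others, and 105 against 112 CPM for Pdyn; their part in the results was not tested.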

How the data were processed

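Single tdTomato-positive cells were sorted into plates and made into full-length complementary DNA libraries (Smart-seq2, no molecular identifiers). Per the labels and the study's methods, the authors demultiplexed with bcl2fastq 2.19.0.316, aligned reads to mm10 with STAR 2.6.1a, counted them per gene without strand with HTSeq 0.11.2, removed Y-linked genes and deposited CPM, counts scaled to each cell's total. The labels listed 1536 cells. The 537 without a column in the table were not analysed here, and 0 columns were unmatched. From the deposited CPM and the size of 1 read, whole reads were recovered for 100% of values within a tolerance of 0.001 read. No 2 cells had identical values.

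The members and the gene lists were chosen with earlier results of these data known. Each dissection drew on several brains, but no label ties a cell to its animal, so each was handled as 1 sample, no test was run and exact binomial intervals (95%) cover counting error only. Reads per cell ran from 96834 to 2780443. Differences between dissections are in log2(mean CPM + 1). A gene was called at 2-fold, or where plate means did not overlap, among 25522 genes with a read in at least 3 cells. Expected numbers of cells with both genes of a pair were summed over plates. Correlations used the natural log of CPM + 1 centred on plates, for members read in at least 10 cells. Clusters were made with Seurat 5.3.0 (20 components, resolution 1) with members, receptors, other peptides, processing and transmitter genes held out. No doublet caller was run. Genes were named by rule: members, their 5 highest and 2 lowest correlated genes, up to 10 genes of each list with the highest mean, and 3 leading genes of a cluster. Adm, Pnoc, Ghrh, Npbwr1, the galanin receptors and the marked plates were named after their values were seen. Promoter windows came from RefSeq. Python 3.11.15, numpy 2.4.6, scipy 1.17.1, pandas 2.3.3 and R 4.3.3 were used, and the scripts were tested on simulated counts. Alternatives were other read thresholds, pseudocounts, thinning, gene filters, rank correlation, cluster settings and leaving out each plate, and, added after the data were seen, leaving out 2 cells low in serotonin markers, splitting the Principal DR plates and centring values on plates before clustering.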

Additional observations from a re-analysis of the deposited data

How the results depend on the processing

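Under other settings, 254 values moved by less than their spread and 35 moved further. All 816 values with 1 plate left out stayed within their spread. The spread was the standard deviation between plates for most results, the binomial interval for shares and a fixed fold for counts. Leaving out 1 plate can hardly move a value that far, so the 816 do not show that results are stable. The Pdyn difference between dissections, -0.82 in log2(CPM + 1), was counted as within its spread at 0.06 without plate 12. With 5 reads or more as the threshold, the share of cells was 31.4% for Gal, 10.8% for Npb and 0.801% for Cartpt, and the median Npb level was 11.3 CPM. With 10 CPM or more, the shares were 30.3% for Pdyn, 27.2% for Gal, 6.11% for Npb, 0.10% for Cartpt and 33.5% for Adcyap1, the median levels 39.1 CPM for Gal, 16.0 for Npb and 17.1 for Cartpt, and the overlap ratio of Gal and Npb 0.330. At 250000 reads per cell, the Npb share was 15.6%. The difference between dissections, in log2(CPM + pseudocount), was at a pseudocount of 0.1 CPM 0.31 for Cartpt and -0.30 for Cck, and at 10 CPM -0.19 for Penk, 0.16 for Npb and 1.18 for Adcyap1. Genes at least 2-fold higher in All DR numbered 946 at 0.1 CPM and 46 at 10 CPM, and in Principal DR 1321 and 102, against 230 and 392 at 1 CPM. With Principal DR plates 25, 39 and 40 alone (a setting chosen after seeing the data) these were 465 and 622, and Penk was at -0.0273. Without cells high in glial markers Tac1 was at -0.65. By Spearman's rho, the leading value was 0.24 for Penk and 0.0289 for Cartpt. Adcyap1 in Trh cells was at -6.15 with 0.1 CPM and -1.25 with 10 CPM. The highest cluster share of Pdyn was 87.8% with variable genes only and 90.4% with centred values, and that of Gal 73.1% and 79.2%. No test was run, so depth and the plate count set what can be read: Cartpt, Tac1 and Cck are too sparse for any comparison, and the Pdyn, Gal, Tac1 and Cck differences between dissections change sign with 1 plate left out. No paired analysis was possible because the dissections share no plates and no test was run.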
